A study of Rattus norvegicus with 6 samples.

Results

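Replication origin recognition and licensing was followed through 10 genes in the RNA-seq of cultured rat oligodendrocyte precursor cells (OPCs). These were the 6 subunits of the origin recognition complex (Orc1 to Orc6), the loading factors Cdc6 and Cdt1, the licensing inhibitor Gmnn and the kinase activator Dbf4. They were picked by gene name from the 32883 gene entries of the deposited table, each name matched exactly 1 entry, and all 10 passed the filter on low counts that left 14670 genes for testing. The cells came from the cerebral cortices of newborn Sprague Dawley rats, were shaken off mixed cultures grown in serum, and were replated in Neurobasal medium with B27 and N2. One group of 3 libraries received 5 µM ZJU-37, an inhibitor of the kinase RIPK1 that was made by adding an amide bond to Nec-1s, and the other group of 3 received an equal volume of its solvent DMSO, both for 36 h by the labels (the study's methods name a shorter time). The cultures of both groups carried no genetic change, and p-values here measure the spread between these libraries, which the methods call biological repeats and a caption calls plate wells, so that the spread may be partly technical.

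A replication origin is licensed in G1, when ORC bound to DNA recruits Cdc6 and Cdt1, and these load the MCM2-7 helicase as an inactive double ring. Geminin, the product of Gmnn, binds Cdt1 from S phase onward and stops origins from being licensed again, and the kinase Cdc7, switched on by Dbf4, starts the loaded helicases. The mRNAs of Orc1, Cdc6, Cdt1, Gmnn and Dbf4 are known to rise in dividing cells as E2F factors become active, while Orc2, Orc3, Orc4 and Orc5 are usually described as present throughout the cell cycle. OPCs are the dividing cells of the oligodendrocyte lineage, and they leave the cycle when they differentiate. The question asked of the genes was whether the regulated and the constitutive members differed in their response to ZJU-37.

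All 5 cell cycle-regulated members rose with ZJU-37, by log2 fold changes from 0.97 for Orc1 to 1.50 for Cdc6, whereas among the 4 subunits taken as constitutive only Orc2 passed the test, with a log2 fold change of 0.43. Orc6, which was kept apart because its class is less settled, rose by 0.63. In all, 7 of the 10 genes passed an adjusted p-value of 0.05 as higher and 0 as lower (quasi-likelihood test of edgeR, Benjamini-Hochberg adjusted over all 14670 tested genes), against 9.43% of the tested genes that were higher and 5.58% that were lower. With the replicate number as a block, 7 were again higher and 1, Orc4, was lower, against backgrounds of 16.2% and 15.9%. The median log2 fold change was 1.23 for the regulated members and -0.05 for the constitutive subunits, beside -0.03 for all tested genes. In 7 genes the ZJU-37 libraries all exceeded the highest DMSO library, which held for 19.0% of the tested genes. In 1 gene, Orc4, each was below, which held for 16.2%.

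**Figure D1:**
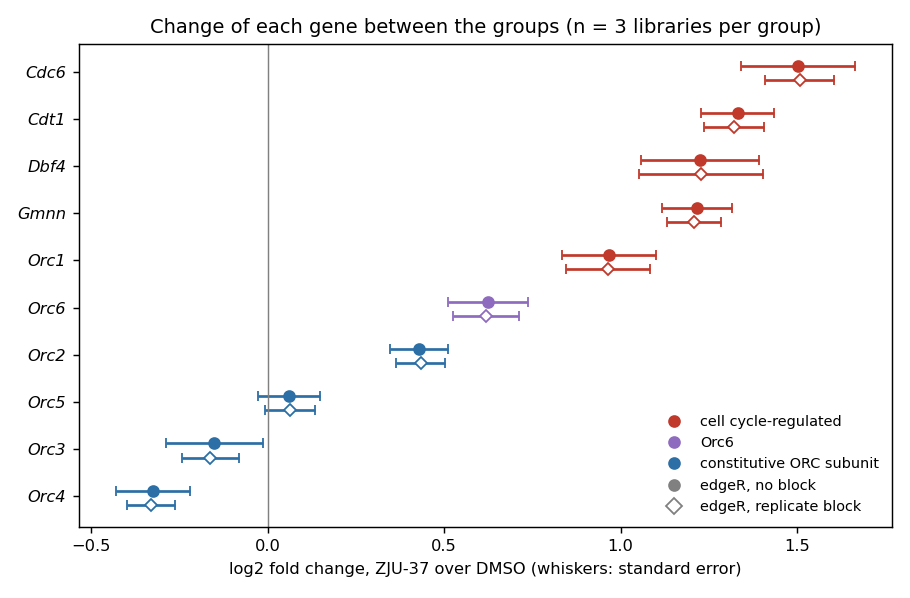
Log2 fold change of each of the 10 genes (ZJU-37 over DMSO, x axis) with its standard error, from edgeR without the block (filled circles) and with the replicate block (open diamonds), coloured by class. The 5 regulated genes lie between 0.97 and 1.50, Orc6 and Orc2 lie at 0.63 and 0.43, and Orc3, Orc4 and Orc5 lie between -0.33 and 0.06.

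Library totals ran from 13935865 to 24097927 counts, which puts the floor of 3 counts at 0.124 to 0.215 CPM, counting error only. CPM divides a count by its library total, and all CPM values of genes below are on the TMM scale. The 10 genes had between 33 and 1593 counts in a library. The OPC label was checked against 7 markers, all of which were measured, with Pdgfra, Cspg4, Olig1 and Ptprz1 higher and Sox10 and Gpr17 lower with ZJU-37. Of these 6 calls, 4 were lost in edgeR when 1 library was left out: those of Pdgfra (adjusted p up to 0.0775) and Olig1 (up to 0.0619) without DMSO replicate 2 or 3, that of Ptprz1 (up to 0.0897) without either of these or ZJU-37 replicate 3, and that of Sox10 (up to 0.155) without any library but ZJU-37 replicate 1. Beside these calls and those below, 9.43% of all tested genes were higher and 5.58% lower (16.2% and 15.9% with the block). The cultures also held mRNA of other cells. The summed level of 7 oligodendrocyte markers was 11086 to 22048 CPM with DMSO and 4665 to 9759 CPM with ZJU-37, and 2 of them were lower (5 with the block). The summed microglia markers (8 genes, 0 changed, 3 lower with the block) ran from 1666 to 2861 CPM and from 1209 to 2469 CPM, and the summed astrocyte markers (7 genes, 1 lower, 4 with the block) from 988 to 1603 CPM and from 856 to 1298 CPM. The 6 neuron markers summed to 164 to 275 CPM and 142 to 216 CPM, with 0 changed and 3 lower with the block. The 5 fibroblast or vascular markers found summed to 40.7 to 98.8 CPM and 24.7 to 68.5 CPM with 0 changed in either fit, and Cldn5 had 0 counts in all 6 libraries. The part of these cells in the results below was not tested, and in bulk RNA more dividing cells and more mRNA per cell cannot be told apart.

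Orc1 encodes an ATPase subunit of ORC that is itself reported to be degraded in S phase in human cells. It lies on the plus strand of chromosome 5 (128190708 to 128210445) in the authors' coordinates, whose build is not given in the sources used here. Orc1 was measured at 6.65, 6.16 and 5.63 CPM in DMSO replicates 1, 2 and 3 and at 13.3, 11.3 and 11.4 CPM in the ZJU-37 replicates of the same numbers. The groups lay far apart, with every ZJU-37 library well above the highest DMSO library. The mean went from 6.14 ± 0.51 to 12.003 ± 1.13 CPM (SD; n = 3 per group), a log2 fold change of 0.97 (adjusted p = 0.00415 by edgeR, standard error 0.13). This change of Orc1 exceeded that of 96.3% of the tested genes.

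Cdc6 encodes the ATPase that joins ORC in G1 and without which no helicase is loaded, and it lies on the plus strand of chromosome 10 (86819472 to 86833402). Its level was 11.5, 9.83 and 7.91 CPM in DMSO replicates 1 to 3 and 31.5, 26.0 and 25.1 CPM in ZJU-37 replicates 1 to 3. Replicate 1 was highest and replicate 3 lowest in both groups, and the groups did not overlap. Cdc6 had the largest log2 fold change of the 10 genes, 1.50 (adjusted p = 0.00154 by edgeR, standard error 0.16), from 9.74 ± 1.78 to 27.5 ± 3.44 CPM (SD; n = 3 per group). Only 0.757% of the tested genes had a log2 fold change as high or higher.

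Cdt1 encodes the factor that brings MCM2-7 to ORC and Cdc6, on the plus strand of chromosome 19 (55381565 to 55386511). It was measured at 25.6, 26.4 and 28.6 CPM in DMSO replicates 1 to 3 and at 76.8, 60.4 and 65.8 CPM in ZJU-37 replicates 1 to 3. The DMSO libraries lay close together, and ZJU-37 replicate 1 was the highest. Cdt1 had a log2 fold change of 1.33 (adjusted p = 5.08e-04 by edgeR, standard error 0.10), from 26.9 ± 1.52 to 67.7 ± 8.33 CPM (SD; n = 3 per group).

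Gmnn, the gene of the Cdt1 inhibitor geminin, lies on the plus strand of chromosome 17 (42302540 to 42310783). It rose together with its target: the DMSO libraries had 22.1, 22.3 and 21.3 CPM and the ZJU-37 libraries 58.0, 46.7 and 48.0 CPM in the order of their replicate numbers. As for Cdt1, the DMSO libraries were nearly level and ZJU-37 replicate 1 stood highest. The mean moved from 21.9 ± 0.53 to 50.9 ± 6.16 CPM (SD; n = 3 per group), a log2 fold change of 1.22 (adjusted p = 5.68e-04 by edgeR, standard error 0.10).

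Dbf4, the activating subunit of the kinase Cdc7, had the lowest measured level of the members. It had 33, 40 and 52 counts in DMSO replicates 1 to 3 and 107, 113 and 149 counts in ZJU-37 replicates 1 to 3, or 2.41, 2.26 and 2.76 CPM against 5.79, 5.48 and 6.16 CPM. The groups did not overlap. The coefficient of variation among DMSO libraries, 10.4%, was below the 15.5% that counting error alone gives at this depth. The log2 fold change of Dbf4 was 1.23 (adjusted p = 0.00391 by edgeR, standard error 0.17). Its counts are uncertain, because its span on chromosome 4 (22898527 to 22914177, plus strand) lies wholly within that of Adam22 on the same strand, and because a second entry, LOC103690019, is described in the table as a DBF4 homolog A-like gene and may take reads from a near-identical sequence. Adam22 had a log2 fold change of 0.11 (adjusted p = 0.753, edgeR). LOC103690019 was measured at 5.70, 3.62 and 2.65 CPM with DMSO and at 13.4, 9.89 and 6.28 CPM with ZJU-37, a log2 fold change of 1.31 (adjusted p = 0.0633, and 1.05e-04 with the block by edgeR, standard error 0.37). In contrast to Dbf4, LOC103690019 was lowest in replicate 3 of each group.

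**Figure D2:**
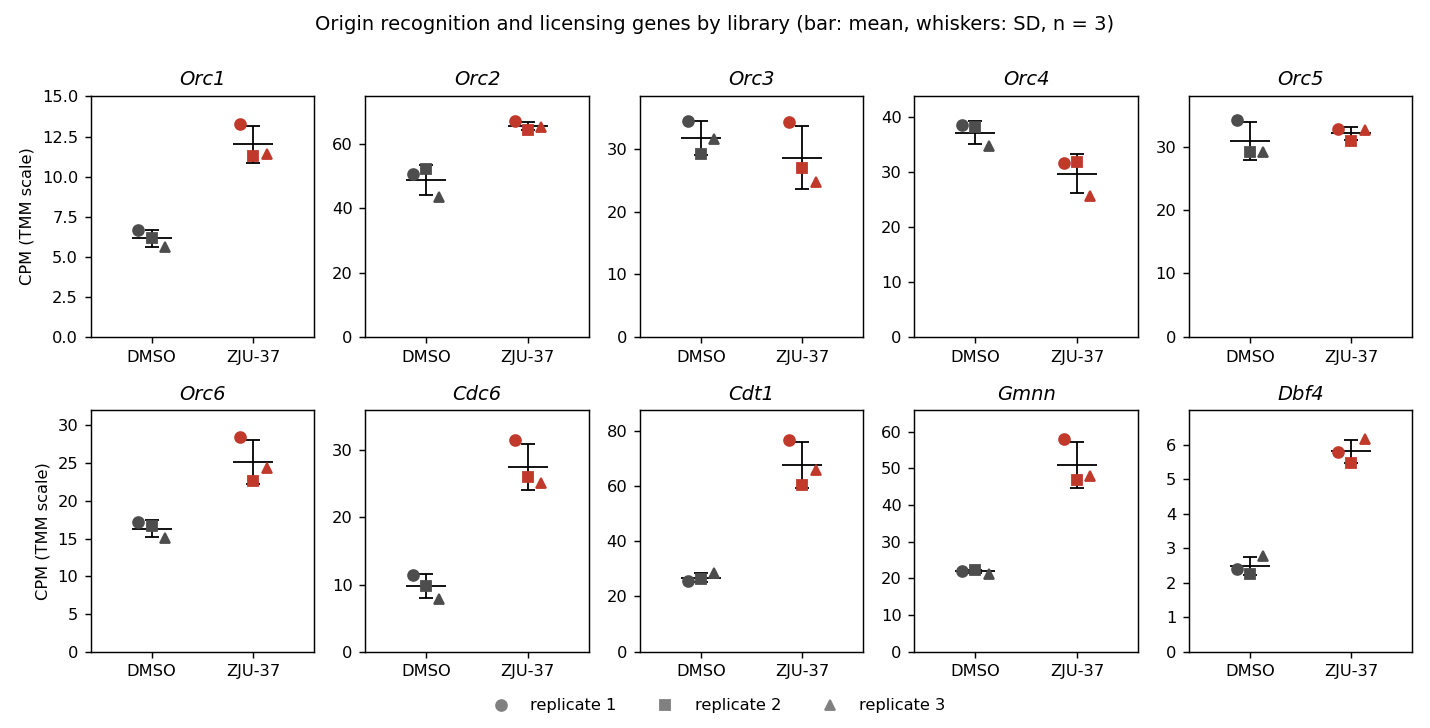
CPM on the TMM scale (y axis, from 0) of each of the 10 genes in the 3 DMSO and 3 ZJU-37 libraries, with the marker shape giving the replicate number, the bar the mean and the whiskers the SD. The groups are apart for Orc1, Orc2, Orc4, Orc6, Cdc6, Cdt1, Gmnn and Dbf4, with Orc4 alone lower with ZJU-37, and they overlap for Orc3 and Orc5.

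Among the ORC subunits, Orc2 encodes a core subunit that pairs with Orc3, and it was the member of the constitutive class that rose. On chromosome 9 (65350627 to 65387169, minus strand), it was measured at 50.5, 52.0 and 43.4 CPM with DMSO and at 66.9, 64.2 and 65.3 CPM with ZJU-37, in the order of the replicate numbers. The ZJU-37 libraries were close to each other and all above the DMSO libraries. Orc2 had a log2 fold change of 0.43 (adjusted p = 0.0147 by edgeR, standard error 0.08), from 48.6 ± 4.61 to 65.5 ± 1.38 CPM (SD; n = 3 per group). This was the smallest rise that passed the test among the 10 genes.

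Orc3, the partner of Orc2 in the core of the complex, lies on the minus strand of chromosome 5 (50020815 to 50075454). Its level was 34.6, 29.2 and 31.7 CPM with DMSO and 34.3, 27.0 and 24.7 CPM with ZJU-37, so the groups overlapped, with replicate 1 highest in both. Orc3 had a log2 fold change of -0.15 (adjusted p = 0.540 by edgeR, standard error 0.14), and 2 standard errors to either side reached from -0.42 to 0.12. Orc5, an ATPase subunit on chromosome 4 (9160067 to 9223997, plus strand), had 34.3, 29.1 and 29.1 CPM with DMSO and 32.8, 30.9 and 32.6 CPM with ZJU-37. The groups overlapped here too, and the log2 fold change was 0.06 (adjusted p = 0.714 by edgeR, standard error 0.09), from -0.12 to 0.23 within 2 standard errors. For neither gene does the missed threshold show that the groups were equal, but both intervals lie below the change of every gene that rose.

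Orc4, another ATPase subunit, was the one member whose level was lower with ZJU-37 in each comparison of libraries. On chromosome 3 (33037034 to 33075685, minus strand), it had 38.5, 38.1 and 34.7 CPM with DMSO and 31.6, 31.7 and 25.5 CPM with ZJU-37. Replicate 3 was the lowest in both groups, and the differences within the pairs of equal replicate number were -0.29, -0.26 and -0.44 on the log2 scale. The call depended on this pairing. Both fits gave a log2 fold change of -0.33. Its adjusted p-value was 0.0876 without the block (standard error 0.10) and 0.00510 with it (standard error 0.07, both edgeR).

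Orc6, the smallest subunit, is needed to load the helicase in many species and is held less firmly by the rest of the complex. On chromosome 19 (27457474 to 27464805, minus strand), its level was 17.2, 16.7 and 15.0 CPM with DMSO and 28.4, 22.6 and 24.3 CPM with ZJU-37. The groups did not overlap, and ZJU-37 replicate 1 was the highest. The log2 fold change of 0.63 (adjusted p = 0.0127 by edgeR, standard error 0.11) lay between those of Orc2 and Orc1. Leaving out DMSO replicate 3 raised the adjusted p-value of Orc6 to 0.0505 (edgeR) and left a log2 fold change of 0.57.

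For comparison between genes, CPM was divided by the gene length in kb. With DMSO, the highest levels were those of Orc4 (22.6 ± 1.26 CPM per kb), Gmnn (18.6 ± 0.45) and Orc2 (16.2 ± 1.53), followed by Orc5 (13.4 ± 1.29), Orc3 (13.3 ± 1.12), Cdt1 (11.997 ± 0.68) and Orc6 (10.8 ± 0.74 CPM per kb; SD, n = 3 libraries). Cdc6 (3.19 ± 0.58), Orc1 (2.41 ± 0.20) and Dbf4 (1.25 ± 0.13 CPM per kb) were the lowest. The libraries of neighbours in this order overlapped from Orc2 to Cdt1 and between Cdc6 and Orc1, and were apart elsewhere. With ZJU-37 the order opened with Gmnn (43.2 ± 5.23 CPM per kb) and Cdt1 (30.2 ± 3.72), ahead of Orc2 (21.8 ± 0.46), Orc4 (18.0 ± 2.14), Orc6 (16.6 ± 1.95), Orc5 (13.9 ± 0.45), Orc3 (11.95 ± 2.10) and Cdc6 (9.03 ± 1.13 CPM per kb). Orc1 (4.70 ± 0.44) and Dbf4 (2.92 ± 0.17 CPM per kb) remained at the end. Here the neighbours Orc4 and Orc6, Orc5 and Orc3, and Orc3 and Cdc6 overlapped. Orc1 was thus the least abundant ORC mRNA per length in both groups. The last place of Dbf4 rests on counts that are uncertain, as given above.

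The summed mRNA of the 6 ORC subunits was 78.5 ± 4.95 CPM per kb with DMSO and 86.9 ± 6.20 with ZJU-37 (SD; n = 3 per group), and the lowest ZJU-37 library (82.2) lay below the highest DMSO library (83.4). Within the pairs of equal replicate number the sum was higher with ZJU-37 each time (83.4 and 94.0, 78.7 and 84.7, and 73.5 and 82.2 CPM per kb). Its composition also differed. Orc1 made up 3.12%, 3.06% and 3.00% of the sum in DMSO replicates 1 to 3 and 5.54%, 5.23% and 5.43% in ZJU-37 replicates 1 to 3. The share of Orc6 moved from 13.7% ± 0.26 to 19.1% ± 1.22 and that of Orc2 from 20.6% ± 1.25 to 25.1% ± 1.36. Orc4 took 28.7% ± 0.68 of the sum with DMSO and 20.7% ± 1.95 with ZJU-37, and Orc3 took 16.9% ± 1.29 and 13.7% ± 1.39, while Orc5 took 17.0% ± 0.90 and 16.0% ± 1.05 (SD; n = 3 per group). Shares of 1 sum are not independent of each other, and mRNA shares do not measure how the protein complex is composed.

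**Figure D3:**
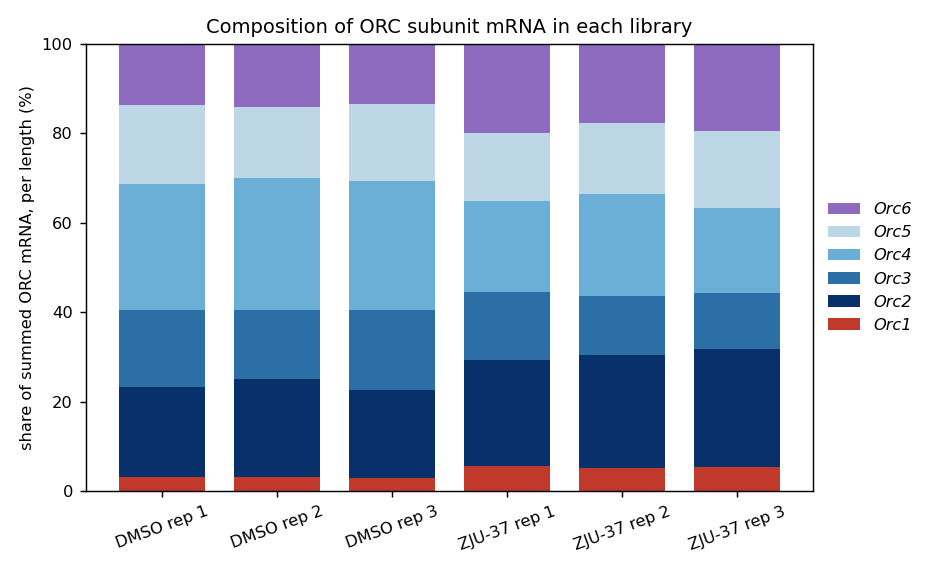
Share of each ORC subunit in the summed ORC mRNA (y axis, percent of CPM per kb) in each of the 6 libraries. The bands of Orc1, Orc2 and Orc6 are wider in all 3 ZJU-37 libraries than in any DMSO library, and those of Orc3 and Orc4 are narrower.

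Ratios between members within a library do not depend on its scaling. The ratio of Orc1 to the geometric mean of Orc2 to Orc5 was 0.153, 0.153 and 0.147 in DMSO replicates 1 to 3 and 0.303, 0.280 and 0.300 in ZJU-37 replicates 1 to 3, all per length. The replicates of each group lay within a narrow range, and the means differed 1.95-fold. On the log2 scale, the mean of the 5 regulated members minus that of Orc2 to Orc5 was -1.79 ± 0.04 with DMSO and -0.54 ± 0.08 with ZJU-37 (SD; n = 3 per group), a difference of 1.25. Within the pairs of replicate 1, 2 and 3 that difference was 1.33, 1.16 and 1.26. It has no p-value, since the genes were chosen with results known and 3 libraries against 3 cannot give a two-sided exact permutation p under 0.1.

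Among the regulated members, Cdt1 was set against its inhibitor. Cdt1 over Gmnn was 0.609, 0.624 and 0.706 with DMSO and 0.697, 0.681 and 0.722 with ZJU-37 (CPM per kb of each gene), higher with ZJU-37 within each replicate number although the groups overlapped. Their means were 0.646 ± 0.052 and 0.700 ± 0.021 (SD; n = 3 per group). The ratio of Cdc6 to Orc1 was 1.44, 1.34 and 1.18 with DMSO and 1.98, 1.93 and 1.84 with ZJU-37, with no overlap. Within the core of ORC, the ratio of Orc4 to Orc2 was 1.40 ± 0.063 with DMSO and 0.827 ± 0.099 with ZJU-37, so that Orc4 was the more abundant of the pair per length in every DMSO library and the less abundant in every ZJU-37 library. The corresponding ratio of Orc3 to Orc2 had means of 0.826 ± 0.110 and 0.548 ± 0.086, again without overlap (SD; n = 3 per group). These differences between ratios were not tested.

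**Figure D4:**
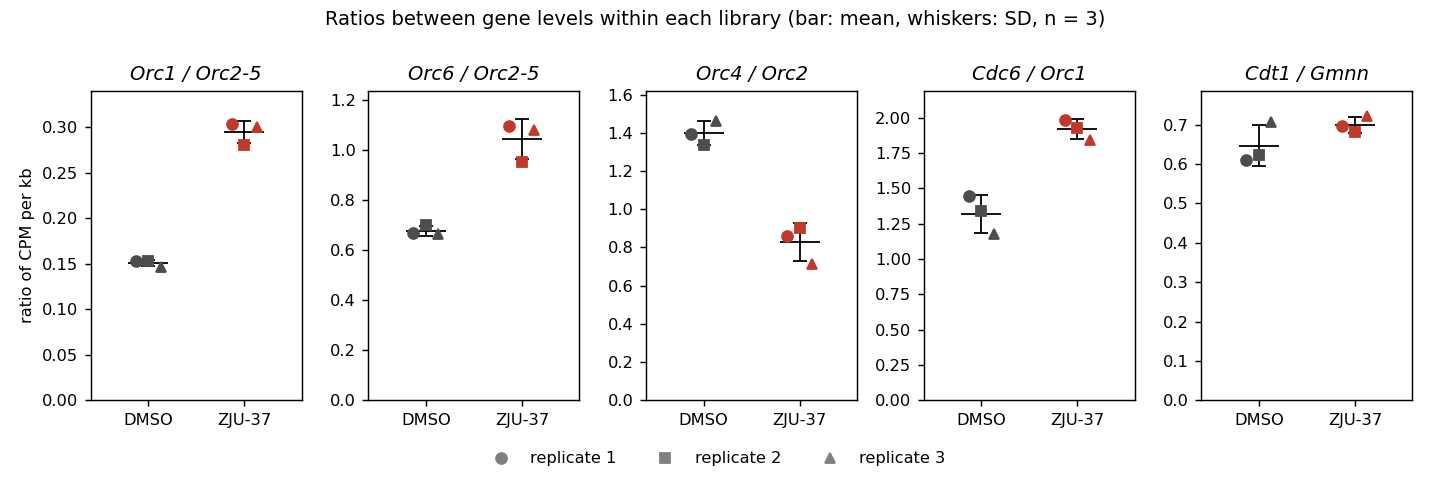
Ratios of CPM per kb between members (y axis, from 0) in each library, with the marker shape giving the replicate number, the bar the mean and the whiskers the SD. Orc1 and Orc6 over Orc2 to Orc5 and Cdc6 over Orc1 are higher in all 3 ZJU-37 libraries, Orc4 over Orc2 is lower, and Cdt1 over Gmnn overlaps between the groups.

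Promoter sequence was looked at because the regulated members moved together. RefSeq promoters of rat build GRCr8 (250 bases before to 50 after the gene start) were found for 7 of the 10 genes. Orc1, Cdc6 and Orc4 had no match by symbol in the promoter set used. Sequences on both strands were searched for the E2F forms TTTCCCGC, TTTCGCGC, TTTGCCGC, TTTGGCGC and GGCGGGAA, the cell cycle element CHR (TTTGAA) and the CCAAT box (CCAAT). The last E2F form, read on the other strand, overlaps the first, so that a longer run can hold both. An E2F form was found in 4 of the 7, Cdt1, Gmnn, Orc3 and Orc5, against 3.77% of 27457 promoters of the same length. The members' promoters were 46.7% (Orc2) to 74.3% (Dbf4) G and C, beside a median of 52.3% for all promoters, and the part of base composition in this share was not tested. The matches fell in both classes: those of Cdt1 and Gmnn lie after the start, at positions 8 and 33 and at position 39, and those of Orc3 and Orc5 lie before it, at positions -95 and -176. CHR matched only Dbf4 (18.1% of all promoters) and the CCAAT box Gmnn and Orc6 (37.7% of all promoters). A match of letters describes the sequence and does not show a bound site.

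The E2F matches and the Dbf4 CHR match are shown with up to 10 bases on each side, read along the gene's own strand, with the match in capitals. They stand at chr19:67529246-67529273 and chr19:67529271-67529298 (Cdt1, plus strand), chr17:40729862-40729883 (Gmnn, plus), chr5:53977872-53977899 (Orc3, minus), chr4:13440147-13440174 (Orc5, plus) and chr4:26631513-26631538 (Dbf4, plus) of GRCr8.
Cdt1, first match: cgcgaaaattGCGCGAAAtccgcgggaa
Cdt1, next match: gaagtagcttTTTGGCGCcatggcgcag
Gmnn: ttcgggtcgtTTTGGCGCggtt
Orc3: catgcctcctTTTCCCGCaagccccgcc
Orc5: ggggtagttaGCGGGAAAgcgcaggctg
Dbf4: gtgacgcgttTTCAAAtctttaaccg
The Cdt1 and Gmnn promoters share the form TTTGGCGC on the gene's strand. The Orc3 and Orc5 matches are the same form on opposite strands, in genes that did not pass the test.

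The partners of the 10 genes were taken from 6 lists, written from general knowledge but with earlier results of these data known. They held 43 genes, of which 42 were found and 40 tested. Of these, 31 were higher with ZJU-37 and 0 lower, and 9 did not pass, beside the 9.43% of all tested genes that were higher and the 5.58% that were lower. With the block, 33 were higher and 0 lower, beside 16.2% and 15.9% (both edgeR). Their median log2 fold change was 0.81. All 6 subunits of the MCM2-7 helicase, the cargo of Cdc6 and Cdt1, were higher, with Mcm5 largest at 1.31 (adjusted p = 3.48e-04, edgeR), while the MCM-binding protein gene Mcmbp had a log2 fold change of 0.23 and passed only with the block (adjusted p = 0.00906, edgeR). All 13 tested firing factors rose, from 0.44 for Gins2 to 1.32 for Gins1, both subunits of the GINS part of the helicase, and Gins4 lost its call without DMSO replicate 2 (adjusted p = 0.0587, edgeR). Cdc7, the kinase that Dbf4 activates, rose by 0.79 (adjusted p = 9.82e-04 by edgeR, standard error 0.08). The ratio of Dbf4 to Cdc7 was 0.170 ± 0.027 with DMSO and 0.230 ± 0.013 with ZJU-37 (CPM per kb, SD, n = 3 libraries each). This ratio shares the uncertainty of the Dbf4 counts.

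Genes tied to the degradation of licensing factors and of geminin were split. Of 11, 6 were higher (7 with the block), namely the adaptors Dtl, Skp2 and Ccnf, the activators Fzr1 and Cdc20, and the inhibitor Fbxo5. Dtl, which directs the Cul4 ligase to Cdt1 on replicating DNA, had the largest change of the whole set of partners, from 16.5 ± 0.75 to 44.9 ± 5.49 CPM (SD; n = 3 per group, log2 fold change 1.44, adjusted p = 4.30e-04, edgeR). Skp2, an adaptor for phosphorylated Cdt1, rose by 0.64 (adjusted p = 0.00525), Fbxo5, which inhibits the anaphase-promoting complex and so protects geminin, by 0.9996 (adjusted p = 0.00194), and Fzr1, the activator through which that complex removes geminin and Cdc6, by 0.49 (adjusted p = 0.00196, all edgeR). The ligase scaffolds and linkers Cul4a, Cul4b, Ddb1, Skp1 and Cul1 had log2 fold changes between -0.15 and 0.17 and did not pass, apart from Cul1 with the block (adjusted p = 0.0292, edgeR). All 4 S phase kinase genes were higher, with Ccna2 largest at 1.29 and Ccne1 smallest at 0.62, and Cdk2 lost its call without DMSO replicate 3 (adjusted p = 0.0530, edgeR). Among 5 chromatin partners of ORC, 2 were higher. One was Lrwd1, which binds and stabilizes ORC on chromatin (log2 fold change 0.46, adjusted p = 0.0236, edgeR, and 0.0504 to 0.0794 without any library but DMSO replicate 2). The other was Rif1, which recruits a phosphatase that opposes the Cdc7 kinase at origins (log2 fold change 0.36, adjusted p = 0.0432, edgeR, and 0.0562 to 0.137 without each of the 6 libraries in turn). The geminin relatives Mcidas and Gmnc were too low to be tested.

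**Figure D5:**
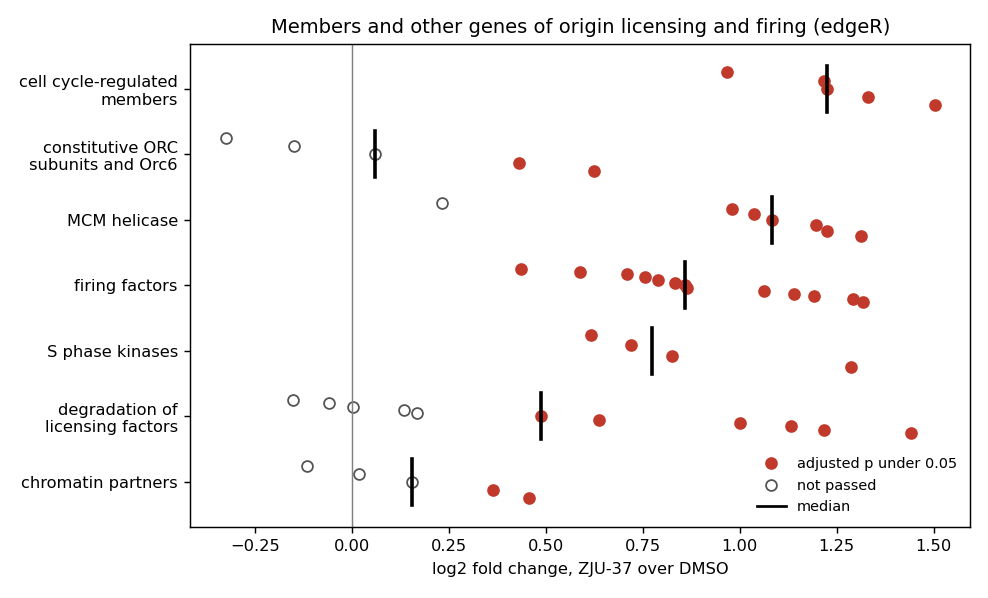
Log2 fold change (ZJU-37 over DMSO, x axis) of the regulated members, of the other ORC subunits and of each partner list, with filled points for an adjusted p-value under 0.05 in edgeR without the block and a line at the median. All points of the regulated members, the firing factors and the S phase kinases are filled and lie above 0, while the remaining rows also hold genes that did not pass.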

How the data were processed

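The 6 libraries of poly-A RNA, 3 per group, were grouped by their labels. The deposited counts per gene were made by the authors with featureCounts (1.5.0 in the submitters' processing notes, which also name HISAT2 2.0.5), and the genome build is not given in the sources used here. The FPKM values deposited by the authors served in alternatives alone, and their own DESeq2 fold changes and p-values were not used. Strand use in counting is not stated.

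Counts were filtered with filterByExpr, scaled by TMM and tested with edgeR 4.0.16 (glmQLFit, robust, glmQLFTest) in R 4.3.3, with Benjamini-Hochberg adjustment over all tested genes and a threshold of 0.05. Standard errors are the absolute log2 fold change divided by the root of F. CPM values are on the TMM scale, and levels per length use the gene length of the table. The named genes are the 10 members, their direct partners, and the extremes of each partner list. Members and lists were chosen with earlier results of these data known. Promoters were read from RefSeq (GRCr8).

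The main fit was unpaired. The replicate numbers of the labels were taken as pairs in the block alternative and where differences within pairs are given. This was done because deviations from the group means correlated at 0.31 to 0.39 across genes for equal numbers, against -0.27 to -0.01 for others. Since the deviations cancel within a group, the negative values are not separate evidence of pairing. The script was tested on simulated counts in which 200 genes were changed and replicates were not paired. At the same threshold, 7.69% of the edgeR calls, 9.92% of those with the block and 25.7% of the DESeq2 calls were false. Without the block, edgeR recovered 13.4% of the changes of 0.5 and 64.2% of those of 1 on the log2 scale. Alternatives were DESeq2 1.42.0, limma 3.58.1 on log2(FPKM + 1) and log2(FPKM + 0.1), RLE or library size scaling, other filters, the block and leaving out each library. No pair of libraries was alike within counting noise (chi-square per degree of freedom at least 11.3). Dbf4b and Pecam1 matched no entry.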

Additional observations from a re-analysis of the deposited data

How the results depend on the processing

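Of the 10 genes, 7 were higher in each of the 14 alternative fits except that without DMSO replicate 3, where Orc6 was not called and 6 were. The count of lower genes was 0 except with the replicate block, where Orc4 made it 1. No log2 fold change of a member changed sign in any fit, and 138 of the 140 values stayed on their side of the threshold, the exceptions being Orc4 with the block and Orc6 without DMSO replicate 3. The block changed no other member's call. Of the partner genes, 28 (without DMSO replicate 3) to 33 (replicate block) were higher over the alternatives, against 31. The difference between regulated and constitutive members, 1.25 on the log2 scale, became 1.05 on log2(FPKM + 1), 1.12 with Orc6 among the constitutive subunits and 1.14 with Orc6 among the regulated members. The pseudocount lowers the change of low genes, and Orc6 lay between the classes. Over all genes, the counts depended on the setting. The 2201 changed genes became 4705 with the replicate block (2371 higher and 2334 lower, against 1383 and 818). They ran from 1306 (without DMSO replicate 2) to 1927 when 1 library was left out, with 858 to 1259 higher and 374 (without ZJU-37 replicate 3) to 668 lower. With 3 libraries per group and totals of this depth, the standard errors of 0.09 to 0.14 set the limit for Orc3, Orc4 and Orc5, whose missed threshold does not show equal levels.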
